A study of Sus scrofa with 12 samples.

Results

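Fluid moves across the wall of the small intestine because salt moves first. In the crypts, chloride is loaded into the cell from the blood side by the sodium-potassium-chloride cotransporter SLC12A2 and leaves into the lumen through the channel CFTR, while potassium channels such as KCNN4 keep the cell negative enough for chloride to leave. On the villi, sodium enters in exchange for protons through SLC9A2 and its relatives, chloride enters in exchange for bicarbonate through SLC26A3, and the sodium pump, whose beta subunit is ATP1B1, carries the sodium out to the blood. Guanylin, the peptide made from GUCA2A, acts on the receptor guanylate cyclase GUCY2C, raises cyclic GMP and thereby favours chloride secretion over sodium uptake. Secretory diarrhoea of young pigs is the best known disturbance of this balance.

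The genes described here are those rows of the gene table whose name is one of 9 listed chloride, sodium and potassium transport genes. Of these names 6 were found (CFTR, SLC12A2, KCNN4, GUCA2A, SLC9A2 and ATP1B1), among 17049 gene names in all. They covered 7 loci, since ATP1B1 had 2, which were summed. SLC26A3 and GUCY2C stood in the table only under Ensembl identifiers, and these rows are given beside the 6 genes without being counted among them. GUCY2C was ENSSSCG00000026724. SLC26A3 was ENSSSCG00000021813, called the first locus here, and a second locus, ENSSSCG00000025267, was assigned to it through a RefSeq protein cited in its description, so fragments of one gene may be divided between both rows. SLC9A3 was not matched and was not analysed here.

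Jejunum was sequenced from 12 piglets in 4 groups of 3. Piglets of sows on a corn-soybean meal basal diet were sampled at 21 days of age, the day of weaning (W_Con), or at 28 days, 7 days after weaning (PW_Con). Piglets of sows fed the same diet with 300 mg/kg resveratrol, a plant polyphenol, from day 20 after breeding until the end of lactation were sampled at the same ages (W_Res and PW_Res). All sows had been bred with pooled Landrace semen according to the deposited record, whereas the published methods name Yorkshire × Duroc litters, and the sources also differ on whether weaned piglets changed room. Piglets had been fostered within a diet. Weaned piglets were also 7 days older, so weaning and age cannot be told apart, and the diet was given to the sow, so litter and diet may be shared among piglets. Values are FPKM, fragments per kilobase of transcript scaled to the mapped fragments of the library. The table gave no counts, so the depth behind each value is not given here; read totals stated with the study cover the control litters alone and were not used.

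The jejunal label was checked against marker genes. Epithelial markers were high in all 12 libraries (summed FPKM of 8 genes from 1839 in W_Res replicate 2 to 5515 in PW_Res replicate 3), and adipocyte and pancreatic markers were near 0. FABP6, the bile acid binding protein typical of the ileum, varied most. It lay between 1.70 and 128 FPKM in 5 libraries (W_Con replicate 3, W_Res replicates 1 and 2, PW_Res replicates 2 and 3) and between 1231 and 24110 FPKM in the other 7, and GATA4, a regulator typical of the proximal intestine, lay at 9.65 to 24.1 FPKM in those 5 and at 0.758 to 5.19 FPKM in the others. The remaining matched proximal markers, CYBRD1, SLC40A1, APOA4 and ADA, overlapped between these sets of libraries. All matched proximal markers summed to 1446 to 4044 FPKM in those 5 and to 693 to 5470 FPKM in the others, so GATA4 alone of that list separated them. Smooth muscle markers summed to 1793 FPKM in W_Res replicate 1 and 3929 FPKM in W_Res replicate 2, against 152 to 658 FPKM elsewhere. Erythrocyte markers summed to 30.9 to 131 FPKM in the sucking libraries and 0.662 to 48.3 FPKM in the weaned ones. Their part in the weaning differences was not tested. In bulk tissue, fewer cells of a type and less RNA per cell cannot be told apart.

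Genes were compared on the log2(FPKM + 1) scale with limma, in 1 fit over the 4 groups, and a gene was called at the study's threshold, an unadjusted P below 0.05 with a log2 fold change beyond 1 in either direction. The sodium-proton exchanger SLC9A2 fell after weaning in control litters and was lower with maternal resveratrol before weaning. The potassium channel KCNN4 rose after weaning in control litters, and the sodium pump subunit ATP1B1 was lower with maternal resveratrol before weaning. CFTR was lower after weaning over both litter sets at an unadjusted P below 0.05, but by less than the fold limit, and that P rose above 0.05 in 8 of 22 alternative fits. SLC12A2 and GUCA2A were called in none of the 6 comparisons, and no member had an adjusted p below 0.05 in any.

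**Figure D1:**
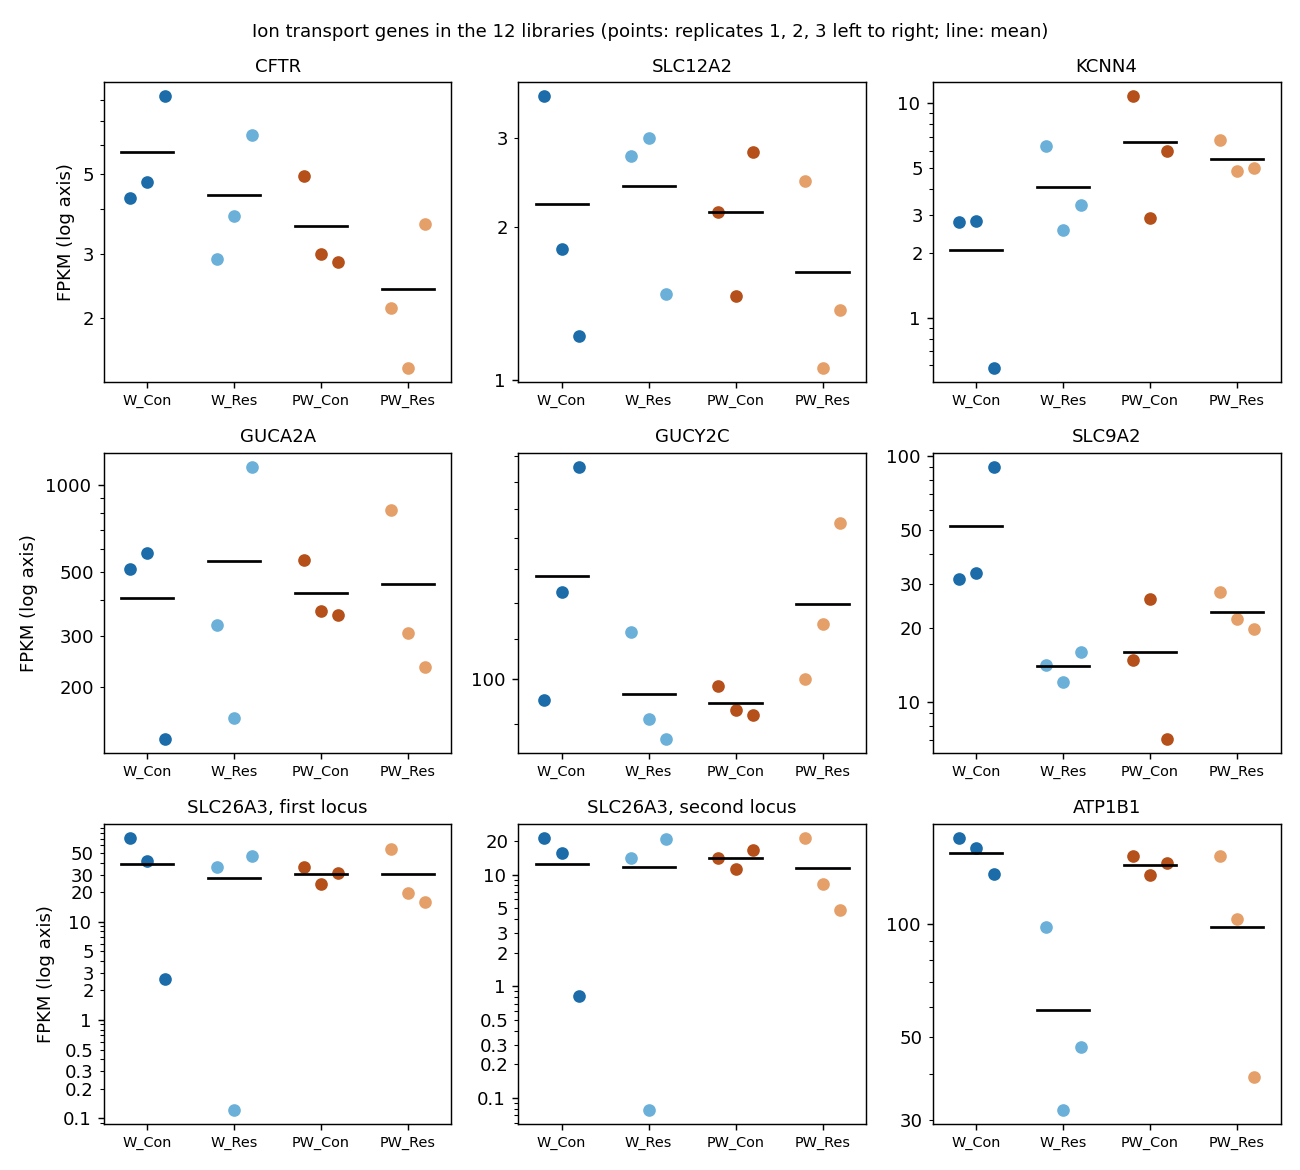
FPKM on a log axis of the 6 members, GUCY2C and both SLC26A3 loci in the 12 libraries, grouped as W_Con, W_Res, PW_Con and PW_Res; points are replicates and lines are group means. SLC9A2 was at 31.6 to 90.1 FPKM in W_Con and at 12.1 to 15.9 FPKM in W_Res, and each SLC26A3 locus had 1 library of W_Con and 1 of W_Res far below the others.

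Among the secretory genes, CFTR, the apical chloride channel, was at 4.29, 4.75 and 8.18 FPKM in W_Con and 4.93, 3.00 and 2.85 FPKM in PW_Con. In the resveratrol litters it was at 2.91, 3.82 and 6.41 FPKM before weaning and 2.14, 1.46 and 3.63 FPKM after it. The groups overlapped in both litter sets, through PW_Con replicate 1 in the first and PW_Res replicate 3 in the second. Group means were 5.74 ± 2.13 FPKM (SD, n = 3) in W_Con, 4.38 ± 1.81 in W_Res, 3.59 ± 1.16 in PW_Con and 2.41 ± 1.11 in PW_Res. The fitted difference, weaned minus sucking, was -0.54 ± 0.32 (log2, SE) in control litters and -0.66 ± 0.32 in resveratrol litters, and it did not differ detectably between them (-0.12 ± 0.46, 95% interval -1.12 to 0.89). Over both litter sets it was -0.60 ± 0.23 (limma, adjusted p = 0.213), beside a median of -0.10 over all 12886 genes tested, and an exact two-sided permutation test of age within diet gave P = 0.035. Of all genes tested, 19% had an unadjusted P below 0.05 in this comparison, and among the members 2 of 6 did, CFTR and KCNN4. The CFTR difference was between -0.91 and -0.45 in all 22 alternative fits, with P above 0.05 after median-of-ratios rescaling (-0.51), after quantile normalization (-0.45), without any 1 of 5 libraries and without W_Con replicate 3 and W_Res replicate 2 together (-0.50). CFTR showed no called difference with maternal resveratrol at 21 days (-0.33 ± 0.32) or at 28 days (-0.45 ± 0.32).

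SLC12A2, which loads chloride into the cell, had the lowest mean of the members over the 12 libraries, though not in W_Con, where KCNN4 was lower (2.07 against 2.22 FPKM), and the smallest range over them (3.44-fold). It was at 3.62, 1.81 and 1.22 FPKM in W_Con, 2.76, 2.99 and 1.48 in W_Res, 2.14, 1.46 and 2.82 in PW_Con and 2.46, 1.05 and 1.37 in PW_Res. Every group overlapped every other. The weaning difference was 0.01 ± 0.32 (log2, SE) in control litters and -0.38 ± 0.32 in resveratrol litters, and over both it was -0.18 ± 0.23 with a 95% interval of -0.68 to 0.31 (exact permutation P = 0.44). Changes smaller than about that interval could not be seen with these libraries.

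KCNN4, the calcium-activated potassium channel of the epithelium, was at 2.80, 2.84 and 0.582 FPKM in W_Con and at 10.8, 2.91 and 6.01 FPKM in PW_Con. All 3 weaned control libraries lay above all 3 sucking ones, although PW_Con replicate 2 did so by little. The resveratrol litters were at 6.33, 2.56 and 3.36 FPKM before weaning and at 6.74, 4.83 and 4.97 FPKM after it, and there the groups overlapped through W_Res replicate 1. KCNN4 rose by 1.27 ± 0.44 (log2, SE) in control litters (limma, adjusted p = 0.207). Leaving out W_Con replicate 3 brought this to 0.85 (adjusted p = 0.489) and leaving out PW_Con replicate 1 to 0.88 (adjusted p = 0.423), and the call was lost each time. KCNN4 belongs to the genes that the study listed from the same control libraries, which makes the control comparison no independent evidence. The study's own sources differ on the direction of KCNN4, and only the published pathway enrichment places it among down-regulated genes. No shared or opposite direction is therefore read from that listing. In resveratrol litters the difference was 0.42 ± 0.44 (adjusted p = 0.656), and the difference between litter sets, -0.85 ± 0.63, was not called (adjusted p = 0.558). Over both it was 0.84 ± 0.31 (adjusted p = 0.201; exact permutation P = 0.035), and the unadjusted limma P rose above 0.05 in 5 of 22 alternative fits. With maternal resveratrol it differed by 0.77 ± 0.44 at 21 days and by -0.09 ± 0.44 at 28 days, neither of them called.

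GUCA2A, the guanylin precursor, was the most abundant of the members and the most uneven between piglets of one group. It was at 511, 579 and 132 FPKM in W_Con, 328, 156 and 1152 in W_Res, 548, 367 and 355 in PW_Con and 820, 307 and 235 in PW_Res. The groups overlapped in all comparisons. The weaning difference over both litter sets was 0.14 ± 0.52 (log2, SE; 95% interval -1.0 to 1.29; exact permutation P = 0.825), with 0.29 ± 0.74 in control litters and 0.00 ± 0.74 in resveratrol litters. Its partner GUCA2B, the precursor of uroguanylin, was at 138, 179 and 14.9 FPKM in W_Con, 69.5, 30.8 and 350 in W_Res, 151, 123 and 99.4 in PW_Con and 447, 36.0 and 52.8 in PW_Res. Both ligands were lowest in W_Con replicate 3 and W_Res replicate 2, the sucking libraries with the least FABP6 (9.10 and 12.2 FPKM). The part of this in the weaning difference was not tested, but the GUCA2A difference over both litter sets was -0.52 in a refit without those libraries and -0.10 in one with FABP6 as a covariate.

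GUCY2C, the receptor of both peptides, was the steadiest row, with 1.91-fold between its lowest and highest library. It was at 95.1, 123 and 166 FPKM in W_Con, 112, 90.9 and 86.8 in W_Res, 98.5, 93.1 and 91.9 in PW_Con and 100.1, 114 and 145 in PW_Res. The PW_Res libraries all lay above those of PW_Con, by 0.32 ± 0.22 (log2, SE; adjusted p = 0.757). The weaning difference was -0.40 ± 0.22 in control litters and 0.30 ± 0.22 in the others, and -0.05 ± 0.16 over both (exact permutation P = 0.785). The difference between litter sets, 0.70 ± 0.32, had an unadjusted P just below 0.05 (limma, adjusted p = 0.362) and did not reach the fold limit. That P was above 0.05 in 17 of 23 alternative fits, whose values ran from 0.14 in Ballgown's linear model to 0.90, so no difference is read from it. Here and below, Ballgown's linear model means a refit of its form over the 4 groups, without the Ballgown software.

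**Figure D2:**
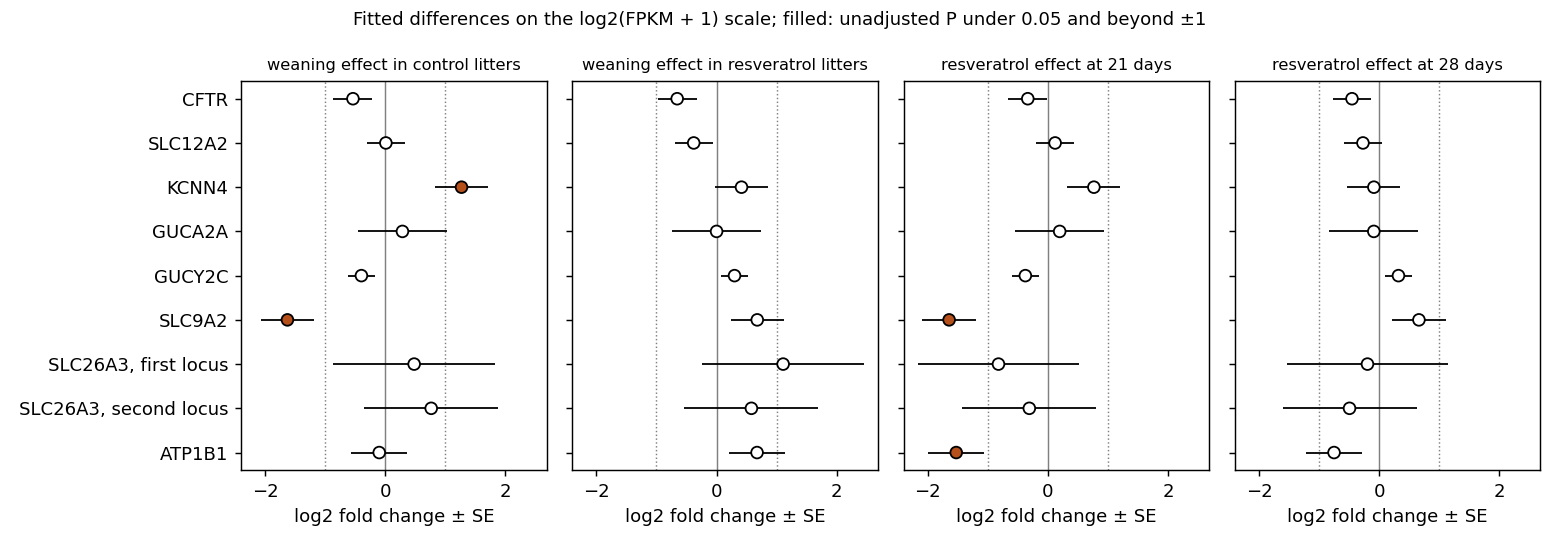
Fitted log2 fold changes with their SE for the same genes in 4 comparisons, with filled points for genes called at an unadjusted P below 0.05 and a change beyond 1. SLC9A2 was called in 2 of the 4 panels, KCNN4 and ATP1B1 in 1 each, and the widest errors were those of the SLC26A3 loci.

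Among the absorptive genes, SLC9A2, an apical sodium-proton exchanger, was at 31.6, 33.4 and 90.1 FPKM in W_Con and at 14.8, 26.1 and 7.07 FPKM in PW_Con. Every sucking control library lay above every weaned one. In the resveratrol litters the order was the opposite, with 14.1, 12.1 and 15.9 FPKM before weaning and 27.9, 21.8 and 19.8 FPKM after it, again with no overlap. SLC9A2 fell by 1.63 on the log2 scale in control litters (SE 0.44, limma, adjusted p = 0.132). In resveratrol litters it differed by 0.68 ± 0.44 (adjusted p = 0.452) and was not called, and Ballgown's linear model turned its sign (-0.26). The difference between litter sets was itself called, at 2.31 ± 0.63 (adjusted p = 0.251).

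Before weaning, SLC9A2 was lower with maternal resveratrol by -1.64 ± 0.44 (log2, SE; adjusted p = 0.121), with means of 51.7 ± 33.2 FPKM (SD, n = 3) in W_Con and 14.0 ± 1.90 in W_Res. After weaning the difference was 0.66 ± 0.44 (adjusted p = 0.75) and the groups overlapped through PW_Con replicate 2. Leaving out 1 library gave 0.21 to 1.08 for it, and it was called without PW_Con replicate 2 (1.08). W_Con replicate 3 had the highest value of the 12 libraries. Without any single library the control weaning difference stayed between -2.05 and -1.15 and was called each time. The refit in the form of Ballgown's linear model, which adds a library covariate, gave 1.45 for the difference between litter sets and -1.09 for resveratrol at 21 days. Both had an unadjusted P above 0.05, so those calls were lost there. SLC9A2, like KCNN4, is among the genes the study chose on the control libraries. W_Con and the other groups are shared between these comparisons, so their sizes are not separate evidence.

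SLC26A3, the chloride-bicarbonate exchanger of the villus, varied more than any other row. The first locus was at 71.8, 41.4 and 2.60 FPKM in W_Con, 36.2, 0.121 and 47.2 in W_Res, 35.9, 24.4 and 31.2 in PW_Con and 55.8, 19.8 and 16.1 in PW_Res. The second locus was at 21.3, 15.6 and 0.823 FPKM in W_Con, 14.2, 0.0778 and 20.8 in W_Res, 14.2, 11.3 and 16.7 in PW_Con and 21.4, 8.20 and 4.78 in PW_Res. Both loci were lowest in the same pair of sucking libraries, W_Con replicate 3 and W_Res replicate 2, and next lowest in PW_Res replicates 2 and 3, which are the 4 libraries with the least FABP6 (1.70 to 12.2 FPKM).

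The weaning difference of the first SLC26A3 locus over both litter sets was 0.80 ± 0.95 (log2, SE; exact permutation P = 0.5) and that of the second was 0.67 ± 0.79 (exact permutation P = 0.47). Without the pair of sucking libraries lowest in FABP6, both differences changed sign, to -0.74 for the first locus and -0.57 for the second, and neither was called. In control litters alone the first locus differed by 0.48 ± 1.35 and the second by 0.77 ± 1.12 (adjusted p = 0.922 and 0.818), and neither was called here. Leaving out W_Con replicate 3 turned both of these control differences, to -0.835 and -0.368. The second locus is, like KCNN4 and SLC9A2, among the genes the study chose on the control libraries. Leaving out W_Res replicate 2 alone brought the differences over both litter sets to -0.0781 and -0.00611, and leaving out no other single library turned their sign, so that sign rested on 1 library. The genes whose log2(FPKM + 1) ran most like the first locus, among the 6302 genes averaging 5 FPKM or more, were the second locus (Pearson r = 0.985), CA4, a carbonic anhydrase (r = 0.916), and ENSSSCG00000000501 (r = 0.887). For the second locus they were the first locus, CA4 (r = 0.962) and OSR2 (r = 0.919). CA4 itself was at 1.13 FPKM in W_Con replicate 3 and 0.680 FPKM in W_Res replicate 2.

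**Figure D3:**
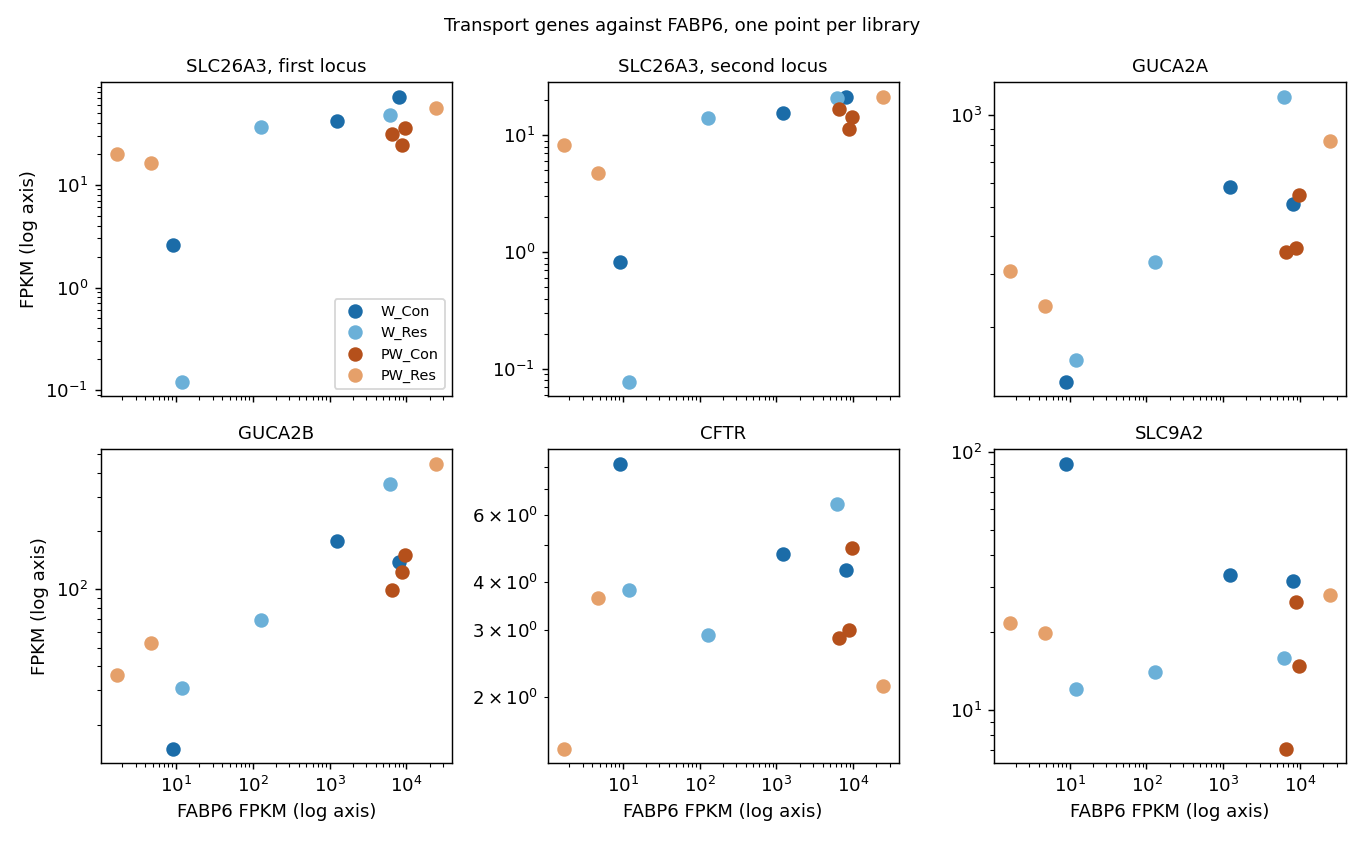
FPKM of both SLC26A3 loci, GUCA2A, GUCA2B, CFTR and SLC9A2 against FABP6 FPKM, both on log axes, with 1 point per library coloured by group. The 4 libraries with FABP6 at 1.70 to 12.2 FPKM held the 4 lowest values of each SLC26A3 locus, whereas CFTR and SLC9A2 had both their high and low values on either side.

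The same likeness measure gave SRI (r = 0.853), GPBP1 (r = 0.846) and GOLM1 (r = 0.844) for CFTR. For SLC12A2 it gave ENSSSCG00000003866 (r = 0.881), EXOSC9 (r = 0.876) and KLF7 (r = 0.850). These are descriptions over the same 12 libraries, which share their composition and scaling.

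ATP1B1, the beta subunit of the sodium pump, was at 170, 159 and 136 FPKM in W_Con and at 98.5, 32.0 and 46.9 FPKM in W_Res, with no overlap. After weaning it was at 152, 135 and 146 FPKM in PW_Con and at 152, 103 and 39.1 FPKM in PW_Res, which overlapped. It was lower with maternal resveratrol at 21 days by -1.53 ± 0.46 (log2, SE; limma, adjusted p = 0.141), with means of 155 ± 17.3 and 59.1 ± 34.9 FPKM (SD, n = 3). At 28 days the difference was -0.75 ± 0.46 (adjusted p = 0.724), which became -1.16 and was called without PW_Res replicate 1 and shrank to -0.20 without PW_Res replicate 3. The weaning difference was -0.10 ± 0.46 with control sows and 0.67 ± 0.46 with resveratrol sows, and 0.29 ± 0.33 over both (exact permutation P = 0.5), and the difference between litter sets was 0.77 ± 0.65 (adjusted p = 0.615). With resveratrol sows, leaving out 1 library gave 0.262 to 1.23, with a call without W_Res replicate 1 or PW_Res replicate 3. The difference between litter sets was called without PW_Res replicate 3 (1.33). W_Res replicates 2 and 3 also had the highest median FPKM over loci (1.12 and 0.836, against 0.238 to 0.479 elsewhere), whose part in the ATP1B1 difference was not tested. The summed FPKM of the jejunal epithelium markers was 3231, 1839 and 2571 in W_Res, below the 3401 to 3965 of W_Con, and that of the smooth muscle markers was 1793, 3929 and 658, above the 152 to 635 of W_Con. Of the epithelial markers, VIL1, CDH17, KRT20 and LGALS4 were lower in every W_Res library than in W_Con, while EPCAM, CDX2, KRT8 and FABP2 overlapped. The T cell markers CD3E (82.5, 49.1 and 54.8 FPKM in W_Con, 12.5, 19.2 and 20.3 in W_Res), CD3D and CD2 were called lower, while CD79A, a B cell marker, was higher in every W_Res library (173 to 230 FPKM) than in W_Con (144 to 150). All 8 lymphocyte markers summed to 253 to 302 FPKM in W_Con and 220 to 283 in W_Res, which overlapped. SLC9A2 was lower in the same W_Res libraries, and the part of these markers in either difference was not tested. Ballgown's linear model gave -1.52 for ATP1B1, but with an unadjusted P above 0.05 the call was lost.

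Set against each other within a library, the absorptive exchanger SLC9A2 and the secretory channel CFTR gave a ratio that does not depend on library scaling. It was 7.37, 7.04 and 11.0 in W_Con and 3.00, 8.71 and 2.48 in PW_Con. In the resveratrol litters it was 4.85, 3.17 and 2.49 before weaning and 13.0, 15.0 and 5.47 after it. The weaned resveratrol libraries thus lay above the sucking ones of the same litters without overlap, while in control litters PW_Con replicate 2 lay among the sucking values. SLC9A2 exceeded CFTR in all 12 libraries on this per-length scale.

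**Figure D4:**
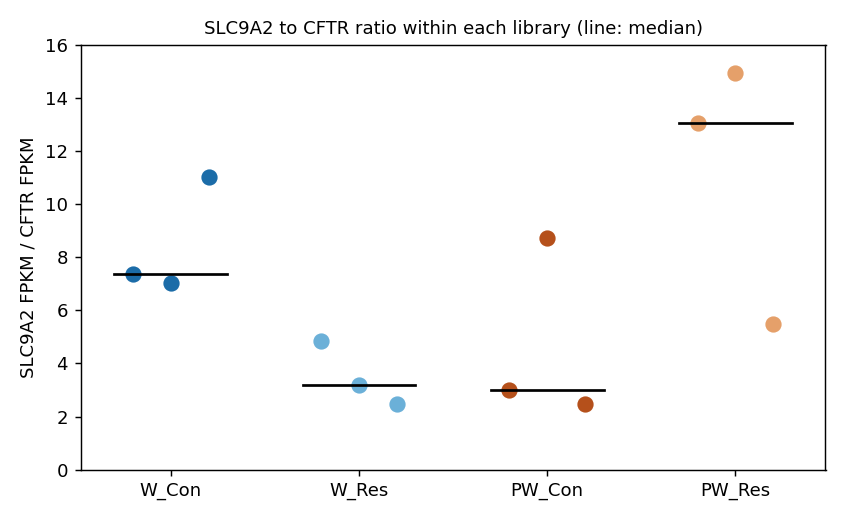
Ratio of SLC9A2 FPKM to CFTR FPKM in each library by group, with the median as a line. It was between 2.49 and 4.85 in W_Res and between 5.47 and 15.0 in PW_Res.

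Ordered by mean FPKM over the 12 libraries, GUCA2A (458) stood first, followed by ATP1B1 (114) and GUCY2C (110), then the first SLC26A3 locus (31.9) and SLC9A2 (26.2), the second SLC26A3 locus (12.5), KCNN4 (4.56), CFTR (4.03) and SLC12A2 (2.10). ATP1B1 and GUCY2C, the first SLC26A3 locus and SLC9A2, and KCNN4 and CFTR overlapped widely as neighbours. Each ligand, receptor and absorptive row thus had a higher mean level per length than the 3 secretory channels and carriers.

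Counted over the comparisons, calls among the members were few. At the study's threshold 2 of 6 members were called for weaning in control litters, where 3.1% of all genes were, and 0 of 6 in resveratrol litters, where 4.94% were. The 2 called in control litters, KCNN4 and SLC9A2, are among the genes the study chose on those libraries. Members were also chosen with earlier results of these data known, so no excess over all genes is read from the shares in this paragraph. Over both litter sets 0 of 6 were called beside 1.42% of genes, and for the difference between litter sets 1 of 6 beside 7.76%. With resveratrol 2 of 6 were called at 21 days beside 4.77%, and 0 of 6 at 28 days beside 1.55%. At an unadjusted P below 0.05 alone, whatever the fold, limma gave 2 of 6 members for weaning in control litters (15.3% of all genes), 0 of 6 in resveratrol litters (17.6%), 2 of 6 over both (19%) and 1 of 6 for the difference (13.7%). For resveratrol it gave 2 of 6 at 21 days (18.5%) and 0 of 6 at 28 days (7.76%). Groups did not overlap for 2 of 6 members in the control weaning comparison (24.9% of all genes), 1 of 6 in resveratrol litters (21.7%), 2 of 6 for resveratrol at 21 days (21%) and 0 of 6 at 28 days (17.2%). An adjusted p below 0.05 was reached by 0% of all genes for weaning in control litters, in resveratrol litters, for the difference between litter sets and for resveratrol at 28 days, by 0.0776% over both litter sets and by 0.0466% for resveratrol at 21 days.

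Of a wider list of 71 ion transport genes, 55 were matched and 42 passed the filter of a mean of 0.5 FPKM. KCNQ1 and ANO1, a potassium and a calcium-activated chloride channel, were not matched and were not analysed here. For weaning in control litters, 0 of the 42 were called higher and 2 lower, beside 3.1% of all genes called, and the median log2 fold change was 0.04 beside -0.01 over all genes. A share of the list near that of all genes, here and in the comparisons that follow, is no result about the list. SLC4A4, the sodium-bicarbonate cotransporter that supplies bicarbonate for secretion, was at 11.4, 12.0 and 6.98 FPKM in W_Con and 6.33, 1.35 and 5.19 FPKM in PW_Con (-1.20 ± 0.44, adjusted p = 0.231). KCNJ13, an inward rectifier potassium channel, was at 12.9, 14.0 and 9.63 FPKM in W_Con and 3.90, 9.26 and 2.33 FPKM in PW_Con (-1.24 ± 0.54, adjusted p = 0.301). Neither gene overlapped between these groups. The call was lost for SLC4A4 without W_Con replicate 1 (-1.10), W_Con replicate 2 (-1.07) or PW_Con replicate 2 (-0.69) and in Ballgown's linear model (-1.14), and for KCNJ13 without W_Con replicates 1 (-1.20) or 2 (-1.14) or PW_Con replicates 1 (-1.16) or 3 (-0.88). For KCNJ13 it was also lost, with an unadjusted P above 0.05, with no filter on low FPKM (-1.24), with the highest locus per gene name (-1.24), in Ballgown's linear model (-1.21) and without W_Con replicate 3 and W_Res replicate 2 (-1.39).

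SLC4A4 was also the 1 gene of the 42 called over both litter sets (1.42% of all genes), where it fell by 1.04 on the log2 scale (SE 0.31, limma, adjusted p = 0.141). It was at 5.58, 5.53 and 10.2 FPKM in W_Res and 5.83, 2.19 and 2.53 FPKM in PW_Res. Its log2 difference was between -1.25 and -0.71 in every alternative fit, but the fold limit was missed in 10 of the 23. At an unadjusted P below 0.05, 3 of the 42 were higher over both litter sets and 10 lower, where 6.57% of all genes were higher and 12.5% lower. Among the 8 secretory channels and carriers this was 0 higher and 3 lower, with a median of -0.45, and among the 6 absorptive exchangers and channels 2 higher and 1 lower, with a median of 0.25. The 11 secretory receptors and second messengers had 0 higher and 4 lower, with a median of -0.20. The 14 absorptive scaffolds and regulators had 1 higher and 2 lower (median 0.13), and the 3 sodium pump genes 0 and 0. The median over all genes was -0.10, and the difference between these groups of genes was not tested. Of the lower secretory rows, KCNMA1 was highest in W_Res replicates 1 and 2 (1.95 and 1.74 FPKM), the libraries with the highest smooth muscle sums. CHRM3 was highest in W_Res replicate 2 (2.34 FPKM), but PDE5A in W_Res replicate 3 (1.81) and SLC4A4 in W_Con replicate 2 (12.0). The part of muscle in these counts was not tested. The scaffold SLC9A3R1 (NHERF1), which anchors CFTR and SLC9A3 at the brush border, was among those higher (0.84 ± 0.34, adjusted p = 0.224). It was at 182, 469 and 192 FPKM in W_Con, 271, 140 and 435 in W_Res, 540, 622 and 375 in PW_Con and 583, 258 and 483 in PW_Res.

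**Figure D5:**
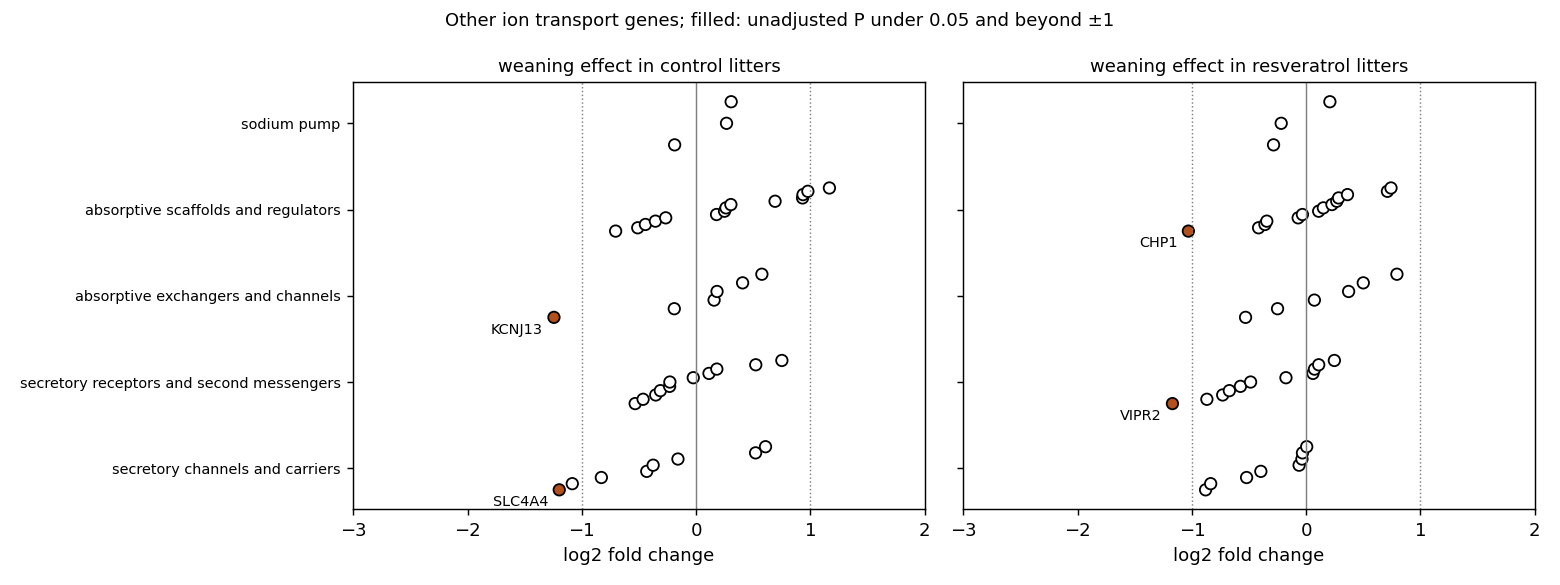
Log2 fold changes after weaning of the 42 other ion transport genes by function, in control litters (left) and resveratrol litters (right); dotted lines mark a change of 1 and filled, named points are called genes. SLC4A4 and KCNJ13 were called in control litters, and VIPR2 and CHP1 in resveratrol litters.

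For weaning in resveratrol litters 0 of the 42 were called higher and 2 lower, beside 4.94% of all genes called, with a median of -0.05 beside -0.15 over all genes. VIPR2, a receptor of vasoactive intestinal peptide, was at 1.54, 2.99 and 0.989 FPKM in W_Res and 0.164, 0.169 and 0.302 FPKM in PW_Res (-1.17 ± 0.25, adjusted p = 0.124). It was highest in W_Res replicate 2 and next highest in W_Res replicate 1, the libraries with the highest smooth muscle sums, and the part of muscle in this difference was not tested. The VIPR2 call was lost with quantile normalization (-0.92), in Ballgown's linear model (-0.57) and without W_Con replicate 3 and W_Res replicate 2 (-0.89). Without W_Res replicate 2 alone, VIPR2 fell below the filter of a mean of 0.5 FPKM. Its dependence on that single library was therefore not tested in any comparison. CHP1, a cofactor of sodium-proton exchangers, was at 31.2, 25.8 and 42.5 FPKM and then 13.0, 9.86 and 28.0 FPKM (-1.03 ± 0.37, adjusted p = 0.207). Its call was lost in 5 alternatives, namely median-of-ratios rescaling (-0.82), Ballgown's linear model (-1.15, with an unadjusted P above 0.05) and without W_Res replicate 3 (-0.84), PW_Res replicate 1 (-0.92) or PW_Res replicate 2 (-0.73).

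With maternal resveratrol at 21 days, 2 of the 42 were called higher and 0 lower, beside 4.77% of all genes called, VIPR2 (1.05 ± 0.25) and the scaffold SLC9A3R2 (1.03 ± 0.31). Both calls were lost after median-of-ratios rescaling (VIPR2 0.98, SLC9A3R2 0.95), after quantile normalization (0.87 and 0.96) and in Ballgown's linear model (0.69 and 0.35). SLC9A3R2 was at 3.94, 4.41 and 1.64 FPKM in W_Con and 6.80, 12.1 and 4.90 FPKM in W_Res, again highest in W_Res replicate 2. Of these 2, none was called at 21 days once W_Con replicate 3 and W_Res replicate 2 were left out (VIPR2 0.72, SLC9A3R2 0.39). For the difference between litter sets 0 of the 42 were called higher and 3 lower, beside 7.76% of all genes called, namely SLC9A3R2 (-1.35 ± 0.44), VIPR2 (-1.28 ± 0.35) and CHP1 (-1.28 ± 0.53). These 3 calls were all lost without W_Con replicate 3 and W_Res replicate 2 (SLC9A3R2 -0.71, VIPR2 -0.95, and CHP1 -1.40 with an unadjusted P above 0.05) and in Ballgown's linear model (-0.30, -0.74 and -1.39). The CHP1 call was lost in 11 of 23 alternatives, also after median-of-ratios rescaling (-1.09), with FABP6 as a covariate (-1.18) and without any 1 of 7 libraries. At 28 days 0 were higher and 1 was lower with resveratrol, beside 1.55% of all genes called, the prostaglandin E receptor PTGER2, at 8.46, 4.05 and 8.51 FPKM in PW_Con and 2.70, 2.67 and 2.19 FPKM in PW_Res (-1.13 ± 0.30, adjusted p = 0.418). This call was lost in Ballgown's linear model (-0.85) and without PW_Con replicate 1 or 3 (both -0.98). SLC26A6, an anion exchanger, was called in no comparison (weaning over both litter sets, 0.33 ± 0.48). In the limma fit to all 12 libraries none of the 42 had an adjusted p below 0.05 in any of the 6 comparisons. Among the alternatives VIPR2 had one without W_Res replicate 3, for weaning in resveratrol litters (-1.40, limma, adjusted p = 0.0328) and for resveratrol at 21 days (1.27, adjusted p = 0.0452).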

How the data were processed

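The authors extracted jejunal RNA, sequenced poly(A) libraries as paired ends and deposited FPKM per locus. The published methods name TopHat, StringTie and Ballgown, whereas the submitters' processing notes list Bowtie 0.12.2, HISAT2 2.0 and StringTie 1.3.0 with the builds mm8 and Sscrofa10.2. The sources used here give no further scaling of libraries, and the table holds no counts, so count tests were not used. Loci without a gene name (17650 of 41264) were left out, and FPKM of loci sharing a name were summed. All value columns were matched to samples by title.

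The 12886 genes averaging 0.5 FPKM or more were fitted on the log2(FPKM + 1) scale by limma 3.58.1 under R 4.3.3 (lmFit, trended eBayes; Benjamini-Hochberg adjustment over all genes tested) with 4 group means and 8 residual degrees of freedom. The pseudocount shrinks fold changes of low genes. Exact two-sided permutation tests permuted age within maternal diet (400 arrangements; the smallest possible p is 0.005). Within 1 diet, 3 against 3 cannot go below 0.1 by permutation. On data simulated for weaning in control litters (12886 genes), 191 of 200 genes changed by 2 (log2) were called. The changed genes were drawn only from those with a mean log2(FPKM + 1) above 2. Recovery of smaller changes, or of lower genes such as SLC12A2, was not tested. Replicates are different piglets by the record.

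Named genes were the members, every listed ion transport gene called in any comparison, and GUCA2B, SLC26A6 and SLC9A3R1 whatever their result; CFTR, SLC12A2 and SLC26A3 also have their 3 most alike genes. The members and lists were chosen with earlier results of these data known. A few listed ion transport genes are not reported here and were left out of the list's counts. No promoter, protein or genome sequence was used here. Alternatives varied the pseudocount, filter, scaling, locus choice, model and libraries.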

Additional observations from a re-analysis of the deposited data

Results flagged for a closer look

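The weaning effect on SLC9A2 was called as different between litter sets. The test of that difference itself (resveratrol minus control litters) gave 2.31 on the log2 scale (SE 0.63, limma, adjusted p = 0.251). Ballgown's linear model gave 1.45 with an unadjusted P above 0.05, so the call was lost there. SLC9A2 was lower in 3 of 3 weaned control libraries than in any sucking one, and higher in 3 of 3 weaned resveratrol libraries than in any sucking one. With 7.76% of all genes called in this comparison, and the highest value in 1 W_Con library, the adjusted p did not pass 0.05, and it ranged from 0.163 to 1.00 over the alternatives.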

How the results depend on the processing

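The counts of called genes depended on the settings. A pseudocount of 0.1 gave 783 genes for weaning in control litters (399 as reported), 1237 in resveratrol litters (636), 591 over both (183), 1185 for resveratrol at 21 days (615) and 456 at 28 days (200). A minimum mean of 5 FPKM gave 219, 212, 118, 250 and 112 for the same comparisons and 364 for the difference between litter sets (1000). Ballgown's linear model gave 234 for weaning in resveratrol litters, 320 for the difference, 310 at 21 days and 119 at 28 days, and quantile normalization gave 410 for weaning in resveratrol litters. Without W_Con replicate 3 and W_Res replicate 2, a setting chosen after seeing the data as was a FABP6 covariate, it was 400 for weaning in resveratrol litters, 466 for the difference and 325 at 21 days. Leaving out 1 library gave 344 to 511, 385 to 1101, 153 to 255, 633 to 1367, 407 to 1017 and 201 to 358 for weaning in control litters, in resveratrol litters, over both, the difference, and resveratrol at 21 and 28 days. The low counts came without W_Res replicate 2 for weaning in resveratrol litters and at 21 days, and without W_Con replicate 3 for the difference. The cause was not tested. Median-of-ratios rescaling moved the median of all genes in resveratrol litters from -0.15 to 0.01 and the higher and lower calls from 127 and 509 to 221 and 307; for both litter sets from 95 and 88 to 120 and 53, for the difference from 233 and 767 to 391 and 521, and for resveratrol from 430 and 185 to 319 and 221 at 21 days and from 84 and 116 to 118 and 86 at 28 days. Quantile normalization gave 183 and 227 in resveratrol litters, 100 and 60 over both, 376 and 446 for the difference and 301 and 252 at 21 days. Ballgown's model gave 123 and 111 in resveratrol litters, 183 and 137 for the difference and 114 and 196 at 21 days, and a pseudocount of 0.1 gave 150 and 441 over both. The split also turned at 21 days without W_Con replicate 3 and W_Res replicate 2 (155 and 170) and at 28 days with the FABP6 covariate (169 and 114).

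Replicate numbers did not pair the libraries (correlations of same-numbered deviations from -0.257 to 0.109). With the replicate block, 401 genes were called for weaning in control litters and 644 in resveratrol litters, 193 over both, 1033 for the difference, and 638 and 214 for resveratrol at 21 and 28 days; no call named in the text changed.

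Differences of genes that were not called changed sign in several fits, given here in log2. With Ballgown's model CFTR for resveratrol at 21 days was 0.00476, KCNN4 at 28 days 0.0967, SLC12A2 in resveratrol litters 0.743 and over both 0.427, and GUCY2C -0.316 and SLC9A2 -0.261 in resveratrol litters. With the FABP6 covariate, in control litters SLC12A2 was -0.138, GUCA2A -0.505 and the SLC26A3 loci -0.754 and -0.301; GUCA2A over both was -0.0994 and KCNN4 at 28 days 0.296. Without both sucking libraries lowest in FABP6, in control litters SLC12A2 was -0.223, GUCA2A -0.391 and the SLC26A3 loci -0.835 and -0.368; in resveratrol litters GUCA2A was -0.656 and the SLC26A3 loci -0.637 and -0.778; over both GUCA2A was -0.523, GUCY2C 0.0339 and the SLC26A3 loci -0.736 and -0.573. GUCY2C over both was 0.0768 from its highest locus and 0.0665 after median-of-ratios rescaling, which gave 0.0315 for the CFTR difference between litter sets and 0.000612 for KCNN4 at 28 days. Quantile normalization gave 0.128 for that CFTR difference, 0.000354 for SLC12A2 over both and -0.0338 for GUCA2A in resveratrol litters. Leaving out 1 library gave -0.364 to 0.139 for the CFTR difference, -0.223 to 0.307 for SLC12A2 in control litters, -0.494 to 0.304 for KCNN4 at 28 days, -0.145 to 0.0531 for GUCY2C over both, and for GUCA2A -0.391 to 0.67 in control litters, -0.656 to 0.781 in resveratrol litters and -0.195 to 0.534 over both. For the first SLC26A3 locus it gave -0.835 to 1.33, -0.637 to 2.08 and -0.0781 to 1.28 in control litters, resveratrol litters and over both, and for the second -0.368 to 1.44, -0.778 to 1.39 and -0.00611 to 1.08. Calls appeared without 1 library for ATP1B1 (weaning in resveratrol litters, 1.12 without W_Res replicate 1 and 1.23 without PW_Res replicate 3, over a range of 0.262 to 1.23; difference, 1.33 without PW_Res replicate 3, range 0.362 to 1.33), SLC9A2 (resveratrol at 28 days, 1.08 without PW_Con replicate 2, range 0.21 to 1.08) and KCNN4 (over both, 1.05 without PW_Con replicate 2, and 1.11 with a pseudocount of 0.1). Calls were lost without W_Res replicate 2 for SLC9A3R2 (0.716 at 21 days), without W_Con replicate 3 for SLC9A3R2 (0.708) and VIPR2 (0.994) at 21 days, and without PW_Con replicates 1 or 3 for PTGER2 (-0.982, -0.978). VIPR2 did not pass the filter without W_Res replicate 2 alone, so no value is given for it there. With no counts, depth limits could not be set.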
